A study of Mus musculus with 6 samples.

Results

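The genes described here are 8 genes of cell fusion in osteoclast precursors, chosen by symbol: Dcstamp, Ocstamp, Cd9, Cd81, Cd44, Adam8, Adam12 and Siglec15. A gene was measured here by every probe set of an Affymetrix Mouse Genome 430 2.0 array whose annotation gave that gene's symbol alone, and of several the one with the highest mean intensity represented it. By this rule 7 of the 8 genes had 11 probe sets among 45037 on the array, and Siglec15, which encodes a sialic acid receptor of osteoclast precursors, had 0, so it was not analysed here. Of the 7 genes, 6 lay above the median of their array on at least 3 arrays and were tested among 22497 such probe sets. The exception was Adam12.

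Gene expression was profiled in bone marrow macrophages of C57BL/6 mice lacking TNF receptors 1 and 2 (TNFR1-/-R2-/-), on 6 arrays. The macrophages carried a retrovirally delivered chimeric receptor, made of the external domain of TNF receptor 1 and the transmembrane and intracellular domain of RANK, the receptor that drives osteoclast formation. The IVVY motif of RANK carried inactivating mutations in the mutant (n = 3 arrays), and the RANK part was intact in the wild type (n = 3 arrays). Both groups went through 3 days of puromycin selection (2 ug/ml) and were then given M-CSF at 44 ng/ml with TNF at 10 ng/ml, the ligand of the chimera's outer part, for 24 hours. Each array held RNA of 6 pooled dishes, and each of 3 independent assays gave a mutant array and a wild-type array, which share its number. The endogenous RANK gene is not among the deleted genes in the labels, and how much chimeric receptor each culture made was not analysed here. Whether a new mouse was used for each assay is not stated in the labels, so p-values measure the spread between these cultures. In such bulk samples fewer fusing cells and less RNA per cell cannot be told apart.

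Osteoclasts form when mononuclear precursors fuse into large cells with many nuclei. DC-STAMP and OC-STAMP, the products of Dcstamp and Ocstamp, are related multipass membrane proteins that RANK signalling induces and without which mouse precursors stay mononuclear. CD9 and CD81 are tetraspanins, small membrane proteins that organise partner proteins in the membrane and affect fusion of sperm and egg as well as of macrophages. CD44 is the hyaluronan and osteopontin receptor, and ADAM8 and ADAM12 are membrane-anchored proteins with metalloprotease and disintegrin domains. Macrophages carry CD9, CD81 and CD44 before any fusion.

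Dcstamp and Ocstamp were both lower on every mutant array than on any wild-type array, while Cd9, Cd81, Cd44 and Adam8 overlapped between the groups. Dcstamp averaged 13.8 ± 1.48 on mutant arrays and 113 ± 75.6 on wild-type arrays, and Ocstamp 4.53 ± 0.0983 on mutant arrays and 28.7 ± 26.7 on wild-type arrays (SD, 3 arrays in each mean). Over the 22497 probe sets limma called 0% at an adjusted p under 0.05, so these are differences in measured values that the test across the array did not call. Of all tested probe sets 1.59% were lower on every mutant array than on any wild-type array, against 2 of the 6 fusion genes. Ocstamp entered the test through its wild-type arrays alone and therefore had to be lower in the mutant, so the 2 of 6 is a description.

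Dcstamp had an intensity of 12.7, 13.2 and 15.5 on mutant arrays 1, 2 and 3, against 71.8, 67.1 and 200.4 on wild-type arrays 1, 2 and 3. The mutant values were nearly alike and lay just above the array medians, which ran between 8.86 and 9.38, and the wild-type value of assay 3 was the highest by far. Within the assays the wild-type intensity was 5.65, 5.07 and 12.9 times the mutant one. On the log2(intensity + 16) scale, where the added 16 dampens differences between dim values, Dcstamp differed by -1.61, -1.51 and -2.78 in assays 1, 2 and 3. The mean log2 difference, mutant minus wild type, was -1.97 ± 0.40 (SE), with a 95% interval of -2.96 to -0.97. Among all 22497 tested probe sets it ranked 17 from the lowest mean difference, while the limma adjusted p was 0.99998. Its unadjusted p was 0.00344, a lower difference at an unadjusted p under 0.05 being held by 0.649% of probe sets and by 1 of the 6 fusion genes.

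Ocstamp read 4.48, 4.47 and 4.64 on mutant arrays 1, 2 and 3, against 14.2, 12.3 and 59.5 on wild-type arrays 1, 2 and 3. All mutant values lay below the median of their array, near the floor of the measurement, and the wild-type values of assays 1 and 2 were only just above it. The log2 differences were -0.56, -0.47 and -1.87 in assays 1, 2 and 3. Their mean was -0.97 ± 0.40 (SE), with a 95% interval of -1.98 to 0.05 that includes 0, and limma gave an adjusted p of 0.99998. The size depends on how the floor is treated and was -2.06 with a pseudocount of 1 and -0.40 with one of 64. Dcstamp was -2.76 and -1.11 with these pseudocounts.

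**Figure D1:**
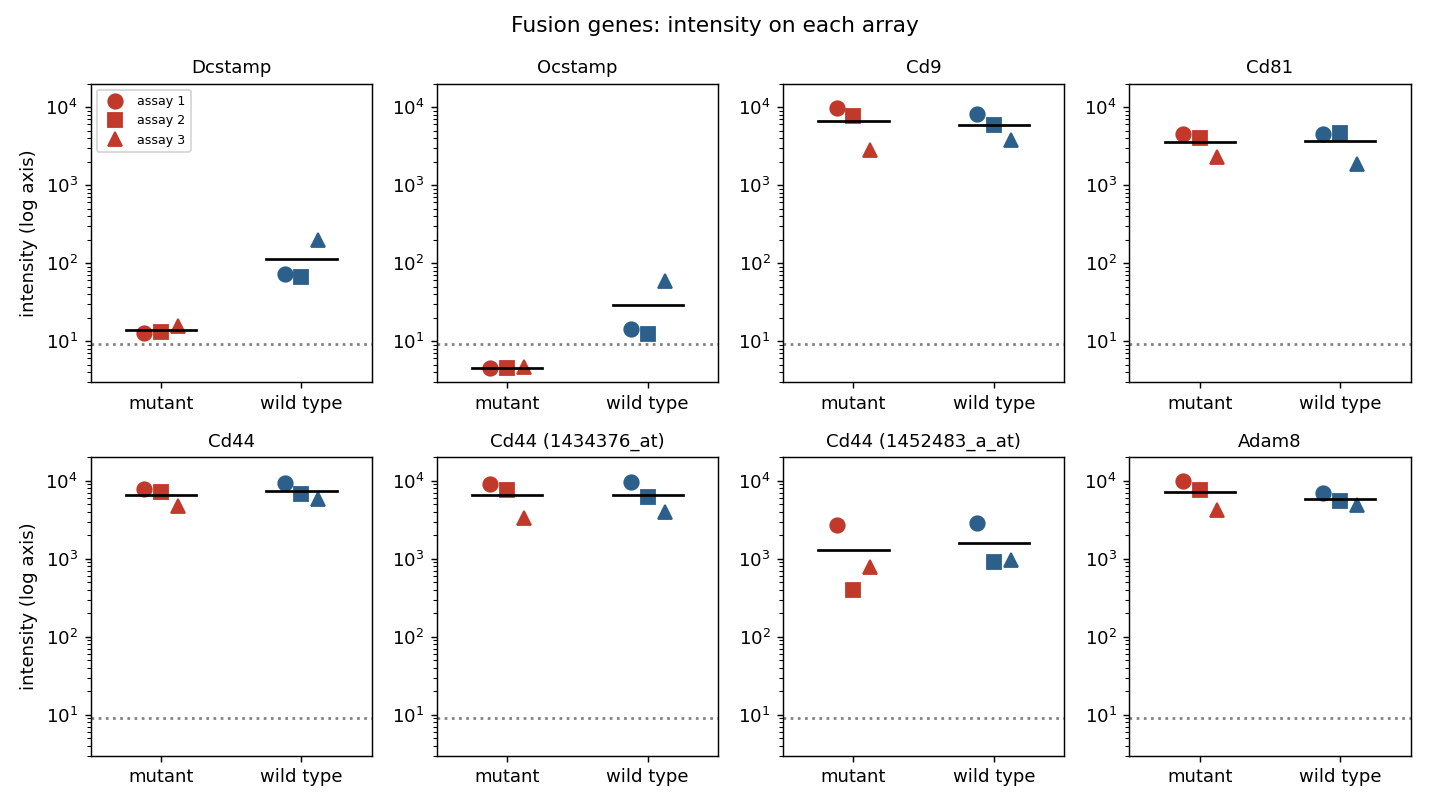
Intensity (log axis) of each tested probe set of the fusion genes on the mutant arrays (left, red) and the wild-type arrays (right, blue), with symbols for the assays, a black line at the group mean and a dotted line at the mean of the array medians. The mutant and wild-type points are apart for Dcstamp and Ocstamp and overlap in the other 6 panels.

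Wild-type array 3 was the highest array for both genes. Without it the log2 difference was -1.52 ± 0.11 (SE) for Dcstamp and -0.51 ± 0.10 (SE) for Ocstamp. Without both arrays of assay 3 these were -1.56 ± 0.10 and -0.51 ± 0.10, with a limma adjusted p of 0.99997 for both genes. Assay 3 also stood apart in stromal genes. The summed intensity of 10 stromal markers was 5336 on mutant array 3 and 3776 on wild-type array 3, while mutant arrays 1 and 2 had 71.6 and 188, wild-type array 1 had 68.2, and wild-type array 2 lay between 71.6 and 188. Of the 10 markers 7 were tested, most of them through more mutant than wild-type arrays. The stromal markers were high on both arrays of assay 3, and their part in the Dcstamp and Ocstamp values was not tested.

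Within same-numbered arrays, Dcstamp and Ocstamp were the 2 fusion genes of the 6 that were lower in all 3 assays, against 11.7% of all tested probe sets, and 0 were higher in all 3, against 13.8%. With the replicate number as a block in the limma fit, the unadjusted p was 0.00286 for Dcstamp and 0.0435 for Ocstamp. A lower difference at such an unadjusted p under 0.05 was held by 2.78% of all probe sets in that fit. Ocstamp, tested through its wild-type arrays alone, had to be lower here too, so the 2 of 6 and its p-value are descriptions. Adjusted over all probe sets the paired limma fit called 0% of them, and its adjusted p was 0.859 for both genes. Of the sum of squares of Dcstamp over the 6 arrays, 82.7% lay between the groups and 10.2% between the assays, and for Ocstamp 52.8% and 24.0%. For Cd9 the shares were 0.320% between the groups and 92.7% between the assays. Over all probe sets together, 7.69% lay between the groups and 81.9% between the assays.

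**Figure D2:**
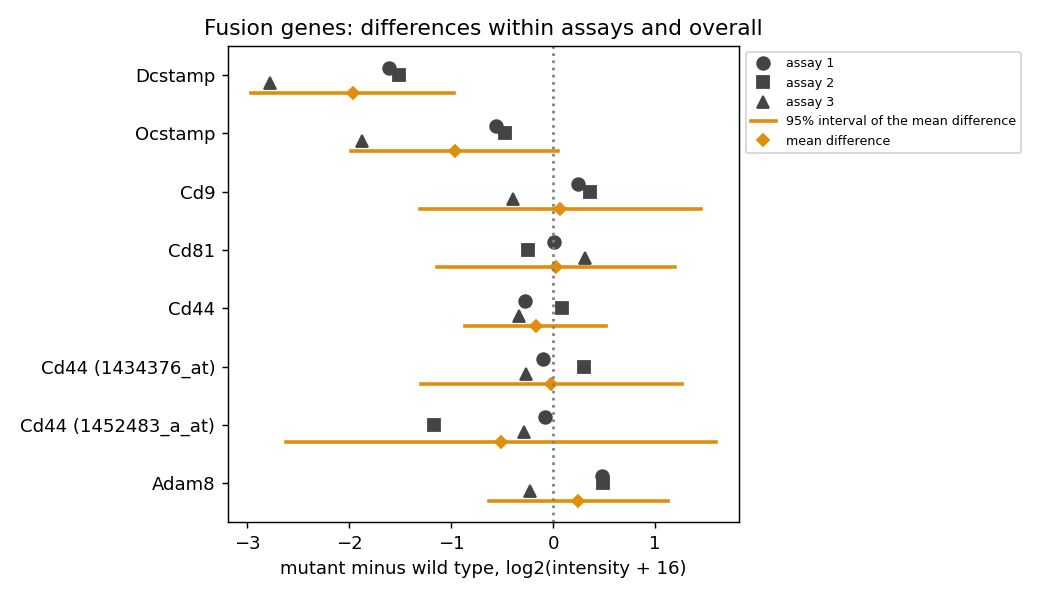
Mutant minus wild type on the log2(intensity + 16) scale for each tested probe set, with a symbol for each assay and, in orange, the mean difference with its 95% limma interval. The 3 assays lie below 0 for Dcstamp, Ocstamp and the third tested Cd44 probe set, and on both sides of 0 for the others. The orange intervals are from the fit without the replicate block, and in that fit the interval of Dcstamp alone excludes 0.

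Of the tetraspanins, Cd9 read 9682, 7597 and 2855 on mutant arrays 1, 2 and 3, against 8195, 5888 and 3755 on wild-type arrays 1, 2 and 3. It was higher in the mutant in assays 1 and 2 and lower in assay 3, with log2 differences of 0.24, 0.37 and -0.39. The mean difference was 0.07 ± 0.55 (SE), with a 95% interval of -1.31 to 1.45. Cd81, whose product is a close relative of CD9, read 4497, 3982 and 2291 on mutant arrays 1, 2 and 3, against 4461, 4711 and 1839 on wild-type arrays 1, 2 and 3. Its log2 differences of 0.01, -0.24 and 0.32 ran opposite to those of Cd9 in assays 2 and 3. The mean was 0.03 ± 0.46 (SE), with a 95% interval of -1.14 to 1.19 (limma, adjusted p = 0.99998 for both tetraspanins). With the replicate number as a block the SE was smaller, at 0.18 for Cd9 and 0.14 for Cd81, and neither passed limma in that fit.

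Adam8 read 9855, 7675 and 4220 on mutant arrays 1, 2 and 3, against 7084, 5444 and 4950 on wild-type arrays 1, 2 and 3. ADAM8, also known as CD156, is a metalloprotease of myeloid cells that has been reported to stimulate osteoclast formation. Its log2 differences of 0.48, 0.49 and -0.23 had the signs of those of Cd9 in each assay. The mean difference was 0.25 ± 0.35 (SE), with a 95% interval of -0.63 to 1.12 (limma, adjusted p = 0.99998). With the replicate number as a block the SE was smaller, at 0.18, and Adam8 did not pass limma in that fit. Both Adam12 probe sets lay below the array medians throughout. Its representative read 5.04 to 5.09 in the mutant cultures, against 5.02 to 5.12 in wild-type cultures, and the other 4.49 to 4.52 in the mutant and 4.47 to 4.54 in the wild type. No difference in Adam12, a gene best known from muscle and mesenchymal cells, could be measured at that intensity.

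Cd44 was represented by 4 probe sets, of which 3 were tested. The representative read 7875, 7188 and 4697 on mutant arrays 1, 2 and 3, against 9508, 6750 and 5928 on wild-type arrays 1, 2 and 3, with a mean log2 difference of -0.17 ± 0.28 (SE) and a 95% interval of -0.87 to 0.52. The second differed by -0.02 ± 0.51 (SE), and its sign was the same as that of the representative in each assay. The third tested probe set read 2753, 397 and 794 on mutant arrays 1, 2 and 3, against 2900, 910 and 971 on wild-type arrays 1, 2 and 3. It was lower in the mutant in all 3 assays, with log2 differences of -0.07, -1.16 and -0.29 and a mean of -0.51 ± 0.84 (SE). Its assay 2 difference is not matched by the representative, which was higher in the mutant there by 0.09, and the Cd44 probe sets thus disagreed (limma, adjusted p = 0.99998 for each of the 3). With the replicate number as a block the SE was smaller, at 0.12 for the representative, 0.14 for the second and 0.25 for the third. None of the 3 passed limma in that fit. Which Cd44 transcripts each probe set detects was not analysed here. The fourth lay near the floor, at 5.46 to 5.59 in the mutant and 5.41 to 5.85 in the wild type.

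The representatives of Cd9, Cd81, Cd44 and Adam8 had in common that both arrays of assay 3 lay below the 4 other arrays. This pattern was held by 27.6% of all tested probe sets and noticed after the values were seen. Dcstamp and Ocstamp did not have it, nor did the third tested Cd44 probe set, which was lowest on mutant array 2. The summed intensity of 10 macrophage markers was 212530 to 238177 in the mutant and 216685 to 228165 in the wild type, with all 10 above the filter and mutant array 3 the highest, so the labelled cell type was borne out by its markers in every culture. Whether the stromal RNA of assay 3 has a part in the lower values of the 4 genes there was not tested.

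To show the regulatory sequence of these bright genes, the 300 bases from 250 before to 50 after a transcript start are printed for Cd9 and Adam8, whose differences shared their signs in the 3 assays, and for Cd44. Of the 8 genes, the windows of 4 were searched, Cd9, Cd81, Cd44 and Adam8. No entry was found for Dcstamp, Ocstamp or Adam12, and Siglec15 was left out of the search. The printed sequences are from a promoter table of RefSeq (build GRCm38.p6). They run 5′ to 3′ on the gene's strand, at chr6:125494711-125495010 (minus strand) for Cd9, chr7:139992513-139992812 (minus strand) for Adam8 and chr2:102901616-102901915 (minus strand) for Cd44. Capitals mark matches, on either strand, to TGANTCA (AP-1), TGGAAA (NFAT core), GAGGAA (PU.1 core), GGGNNTTCC (NF-kB) or TCACGTG (MITF).
Cd9: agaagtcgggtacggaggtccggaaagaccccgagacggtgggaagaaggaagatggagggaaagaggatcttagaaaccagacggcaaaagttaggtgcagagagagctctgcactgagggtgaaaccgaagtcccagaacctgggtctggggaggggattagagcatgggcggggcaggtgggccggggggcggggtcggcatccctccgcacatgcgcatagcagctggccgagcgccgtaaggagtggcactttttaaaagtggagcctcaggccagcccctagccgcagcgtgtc
Adam8: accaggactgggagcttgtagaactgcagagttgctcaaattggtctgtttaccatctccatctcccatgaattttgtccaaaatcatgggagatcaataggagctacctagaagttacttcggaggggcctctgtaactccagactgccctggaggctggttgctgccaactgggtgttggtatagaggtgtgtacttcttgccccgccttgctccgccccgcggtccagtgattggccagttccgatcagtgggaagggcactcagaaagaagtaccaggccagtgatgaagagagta
Cd44: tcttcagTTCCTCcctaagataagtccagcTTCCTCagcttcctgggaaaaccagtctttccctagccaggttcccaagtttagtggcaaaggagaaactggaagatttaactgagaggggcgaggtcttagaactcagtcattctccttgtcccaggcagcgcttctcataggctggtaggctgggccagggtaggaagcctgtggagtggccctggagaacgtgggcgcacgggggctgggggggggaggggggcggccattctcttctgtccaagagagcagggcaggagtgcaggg
The Cd44 window held 2 matches to the PU.1 core, both on the opposite strand, at bases 8 to 13 and 31 to 36, and the letters of the other 4 motifs are not in it. The windows of Cd9, Adam8 and Cd81 held no match to any of the 5. Of 32851 windows of this length in the table, 28.3% held the PU.1 core, 21.4% the NFAT core, 7.81% the AP-1 letters, 5.82% the NF-kB letters and 3.77% the MITF letters.

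Other genes of the fusion machinery had a lower mean in the mutant as often as a higher one. Of 24 further genes with a reported role in fusion of macrophages or osteoclast precursors, or related to the STAMP proteins, 20 were tested, 10 lower and 10 higher in the mutant by the mean of log2(intensity + 16), the scale of all such counts, at a median log2 difference of 0.00. Over all tested probe sets 48.3% had a lower mean, and the median was 0.00. By limma 0 of the 20 passed, with 1 at an unadjusted p under 0.05, while 6 were lower and 4 higher in every assay. Over all tested probe sets 11.7% were lower and 13.8% higher in every assay, which holds for the groups below too. With the replicate block, the unadjusted limma p was 0.0256 for Dock5, 0.0172 for Rac2 and 0.0125 for Cd36, which was higher in the mutant. At an unadjusted p under 0.05 that fit had 626 lower and 563 higher probe sets of 22497. Dock5, an activator of Rac in osteoclasts, read 77.0, 87.1 and 35.3 on mutant arrays 1, 2 and 3, against 128, 121 and 124 on wild-type arrays 1, 2 and 3, a log2 difference of -0.83 ± 0.28 (SE). Rac2, a GTPase of the actin skeleton in blood cells, read 1613, 1042 and 1471 on mutant arrays 1, 2 and 3, against 1914, 1708 and 2031 on wild-type arrays 1, 2 and 3, a difference of -0.47 ± 0.19 (SE). Dock5, Rac2 and the transcriptional coregulator gene Sbno2, which differed by -0.20 ± 0.11 (SE), were the 3 without overlap between the groups. Lower values without overlap were held by 1.59% of all tested probe sets. Atp6v0d2, a proton pump subunit required for normal fusion in mice, differed by -1.11, -0.03 and -1.58 in assays 1, 2 and 3, a mean of -0.91 ± 0.53 (SE) with overlapping groups. Dcst1, Dcst2, Itgb3 and Bcar1 lay below the filter.

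The other tetraspanins and their partners were spread evenly. Of 14 tested, 8 were lower and 6 higher by their means, the median was -0.02, 0 passed limma with 0 at an unadjusted p under 0.05, and 2 were lower and 2 higher in every assay. With the replicate block, the unadjusted limma p was 0.0356 for Tspan3, 0.0303 for Tspan32 and 0.0439 for Igsf8, with 0 passing after adjustment. Of these Igsf8 was higher in the mutant, and Tspan3 and Tspan32 were lower. Tspan3 differed by -0.59 ± 0.48 (SE), Cd82 by -0.29 ± 0.23, Tspan33 by -0.20 ± 0.15 and Tspan13 by 0.45 ± 0.38. In mouse cell lines Tspan13 has been described as a brake on osteoclast fusion. It read 226, 356 and 153 on mutant arrays 1, 2 and 3, against 239, 112 and 168 on wild-type arrays 1, 2 and 3, so that its higher mean came from assay 2.

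Of the other ADAM protease genes 6 were tested, 1 with a lower and 5 with a higher mean, with a median of 0.13 and 0 passing limma or at an unadjusted p under 0.05. With the replicate block the unadjusted limma p of Adam15 was 0.0329. Adam15 differed by 0.50 ± 0.56 (SE), Adam19 by 0.18 ± 0.62, Adam9 by 0.14 ± 0.14 and Adam10, the main sheddase of CD44, by 0.11 ± 0.22. In every assay 3 of the 6 were higher in the mutant and 0 were lower. Of the other Siglec genes and the adaptors through which such receptors signal, 5 were tested, 3 lower and 2 higher, with a median of -0.00 and 0 passing or at an unadjusted p under 0.05. Tyrobp, which encodes DAP12, the adaptor of Siglec-15, read 25358 to 26238 in the mutant cultures, against 25999 to 26440 in wild-type cultures, a difference of -0.02 ± 0.08 (SE). Hcst, the adaptor DAP10, differed by 0.30 ± 0.27, Cd33 by 0.15 ± 0.15 and Siglec1 by -0.21 ± 0.78. In every assay 1 of the 5 was lower and 1 higher.

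Among ligands and partners of CD44, 6 genes were tested, 3 lower and 3 higher, with a median of -0.01. None passed limma, and 1 had an unadjusted p under 0.05, Mmp14. It was also the 1 without overlap between the groups, beside 1.59% of all tested probe sets that were lower without overlap. Mmp14, the membrane-type metalloprotease that cleaves CD44, read 261, 88.8 and 473 on mutant arrays 1, 2 and 3, against 606, 579 and 1034 on wild-type arrays 1, 2 and 3. Every wild-type value was above every mutant value. Its log2 difference was -1.59 ± 0.61 (SE), with -1.17, -2.51 and -1.10 in assays 1, 2 and 3. With the replicate block its unadjusted limma p was 0.00907. Rdx, which encodes radixin, a linker of CD44 to actin, differed by 0.27 ± 0.18 (SE), Cd74 by 0.43 ± 0.76 and the linker gene Ezr by -0.13 ± 0.67. In every assay 1 of the 6 was lower and 1 higher. The hyaluronan synthase genes Has1, Has2 and Has3 lay below the filter.

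Transcription factors that regulate osteoclast formation or Dcstamp were as often lower as higher. Of 12 tested, 6 were lower and 6 higher by their means, the median was 0.01, and 3 were lower and 1 higher in every assay. By limma 0 passed, with 1 at an unadjusted p under 0.05. That gene was Fosl2, an AP-1 factor, which read 487, 629 and 390 on mutant arrays 1, 2 and 3, against 683, 694 and 901 on wild-type arrays 1, 2 and 3. Its log2 difference was -0.60 ± 0.21 (SE). It was the 1 regulator without overlap between the groups, beside 1.59% of all tested probe sets that were lower without overlap. Prdm1, the repressor Blimp1 that silences inhibitors of osteoclast formation, differed by -0.54 ± 0.32 (SE), with -0.72, -0.41 and -0.48 in assays 1, 2 and 3. With the replicate block the unadjusted limma p was 0.00587 for Prdm1 and 0.0605 for Fosl2. Bcl6, reported to repress Dcstamp, differed by 0.34 ± 0.30 and Junb by -0.54 ± 0.64.

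**Figure D3:**
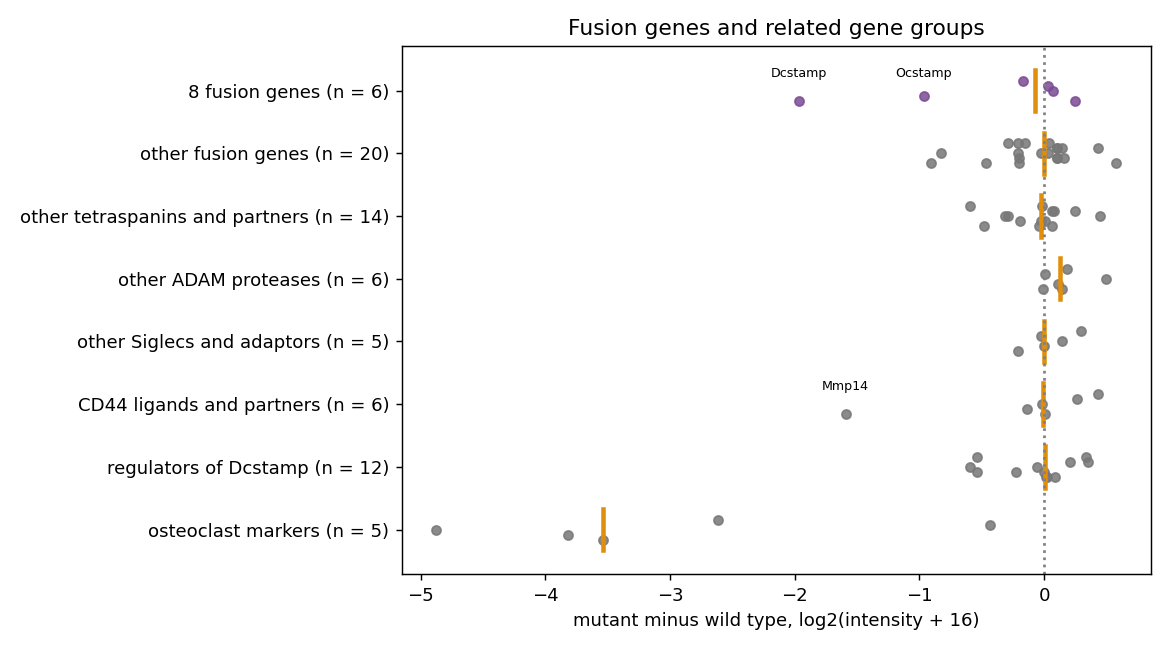
Mutant minus wild type on the log2(intensity + 16) scale for the tested genes of each group, with an orange bar at the median and n the number tested. Dcstamp and Ocstamp lie to the left of the other fusion genes, Mmp14 of the CD44 partners, and the 5 tested osteoclast markers have the lowest median.

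As markers of the osteoclast state, 5 of 6 listed genes were tested, and all 5 were lower in the mutant without overlap, at a median log2 difference of -3.54, beside 1.59% of all tested probe sets without overlap. Calcr, the calcitonin receptor gene, was tested through its wild-type arrays alone (6.38 to 6.59 on mutant arrays, against 10.4 to 22.4 on wild-type arrays) and had to be lower. Car2 read 7.15, 7.13 and 9.44 on mutant arrays 1, 2 and 3, near the array medians. The list was also chosen with earlier results of these data known, so the count and the median are descriptions. Acp5, the acid phosphatase that stains osteoclasts, differed by -3.54 ± 0.59 (SE), Mmp9, a matrix protease, by -4.88 ± 0.89, and Ctsk, the collagen-degrading cathepsin K, by -3.82 ± 0.81. These and Car2 and Calcr each had an unadjusted p under 0.05, beside 0.649% of all probe sets that were lower at that level, and 0 passed limma over all probe sets. The summed intensity of the 6 was 810, 1026 and 1314 on mutant arrays 1, 2 and 3, against 11311, 8057 and 25492 on wild-type arrays 1, 2 and 3. Wild-type array 3 was thus the highest in these markers, as it was in Dcstamp and Ocstamp.

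The 5 genes with the pattern most like that of Dcstamp, by the smallest root mean square distance over the 6 arrays after centring each gene on its own mean of log2(intensity + 16), were searched among 10371 other genes. They were Cd200 (distance 0.16), Cdkn2b (0.32), Slc9b2 (0.34), Gpc1 (0.34) and Rab38 (0.35). Cd200 encodes a membrane glycoprotein whose receptor sits on myeloid cells, and mice lacking it have fewer osteoclasts. It read 7.16, 12.1 and 6.01 on mutant arrays 1, 2 and 3, against 60.6, 42.5 and 151 on wild-type arrays 1, 2 and 3. Like Dcstamp it was highest on wild-type array 3 and near the array medians in the mutant. Cdkn2b encodes a cell cycle inhibitor, Slc9b2 a sodium proton exchanger of osteoclasts, Gpc1 a cell surface proteoglycan and Rab38 a small GTPase of lysosome-related organelles. With a pseudocount of 64 only Cd200 and Slc9b2 of these were among the 5 nearest.

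**Figure D4:**
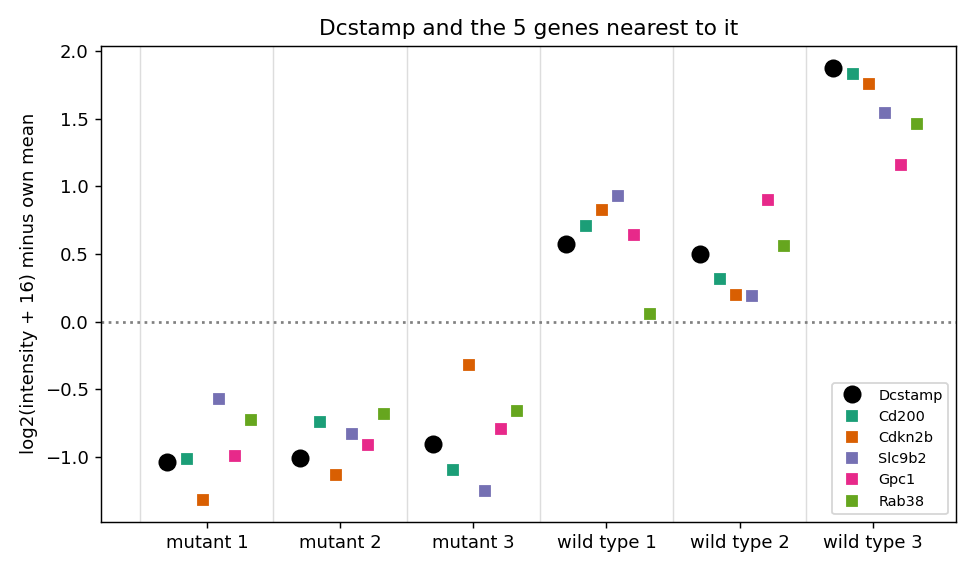
Dcstamp (black circles) and the 5 genes nearest to it (squares) on the mutant arrays (left) and wild-type arrays (right), as log2(intensity + 16) minus each gene's own mean. All 6 genes lie below 0 on the mutant arrays and above 0 on the wild-type arrays, and each is highest on wild-type array 3.

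Markers of other cells were compared in the same cultures. Of 7 dendritic cell markers, a cell type that also makes DC-STAMP, 2 were tested, Batf3 and Itgax, with log2 differences of -0.13 and -0.12 and overlapping groups. The mean intensity of Itgax was 284 on mutant arrays and 279 on wild-type arrays, so that its sign depends on the scale. The summed intensity of the 7 was 249 to 597 in the mutant and 319 to 557 in the wild type. Flt3, Cd209a, Zbtb46 and Xcr1 lay at 3.89 to 8.47 on all arrays, and Ccr7 read 103 on wild-type array 3 and at most 6.50 elsewhere. Of the megakaryocyte and platelet markers, whose cells carry much CD9, Pf4 alone was tested of 5 and is also made by macrophages, and their sums were 5217 to 15274 in the mutant and 4501 to 9883 in the wild type. Itga2b, Gp9 and Gp1bb lay at 4.12 to 5.43. Ppbp, a platelet chemokine gene below the filter, read 5.81, 5.93 and 5.73 on mutant arrays 1, 2 and 3, against 10.8, 5.51 and 26.5 on wild-type arrays 1, 2 and 3. It was highest on wild-type array 3, as Dcstamp and Ocstamp were, and its part in their values was not tested. The 7 neutrophil markers summed to 157 to 679 in the mutant and 241 to 706 in the wild type, with S100a8 alone tested, and the 7 lymphoid markers to 41.5 to 41.6 in the mutant and 40.1 to 43.4 in the wild type, with Ms4a1 alone tested. The part of Ccr7-bearing cells in the high Dcstamp value of wild-type array 3 was not tested.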

How the data were processed

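Expression was measured with Affymetrix arrays in 6 cultures, grouped and numbered by their titles. The deposited values were intensities on a linear scale. Per the submitters' processing notes GCOS and GCRMA were used, with no versions given. GCRMA corrects the background and makes arrays alike, which presses dim probe sets to a floor. The 75th percentiles of the 6 arrays were 160 to 164, so no further normalization was applied. Precision is limited by how few arrays there are.

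Of 45101 probe sets, 64 controls were left out. The platform annotation gave 1 symbol for 34945, several for 932 and none for 9160. By gene identifier 34741 were found in RefSeq (GRCm38.p6), and 0 symbols changed. Probe sets above the median of their array on at least 3 arrays were tested with limma 3.58.1 (lmFit and eBayes, two-sided, R 4.3.3) on log2(value + 16), mutant minus wild type, without a block, and adjusted by Benjamini-Hochberg over all 22497, with a threshold of 0.05. Standard errors (SE) and intervals are limma's. Labels call the assays independent, and, after subtracting group means, arrays sharing a number correlated at 0.797, 0.671 and 0.845, so the numbers pair the arrays. The fits were tested on simulated data. Alternatives were a fixed or random replicate block, pseudocounts of 1 and 64, no filter or one at the 70th percentile, quantile normalization, a common 75th percentile, the mean of a gene's probe sets, and leaving out each array or pair.

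Members and lists (6 related groups, osteoclast markers, and macrophage, stromal, dendritic, platelet, neutrophil and lymphoid markers) were chosen with earlier results of these data known. Named were all members, up to 4 genes with the smallest p of each related group, the 5 genes nearest to Dcstamp, and Acp5, Ctsk and Mmp9. Any other gene was named after its values were seen.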

Additional observations from a re-analysis of the deposited data

How the results depend on the processing

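Dcstamp and Ocstamp were lower in the mutant under each of the 17 alternatives that tested them, at -2.76 to -1.11 and -2.06 to -0.40 on the log2 scale, and limma adjusted p-values were at least 0.587 and 0.859. With the filter at the 70th percentile neither was tested, so 0 fusion genes were lower in every pair. The paired limma fit, with the replicate block, called 0 probe sets (smallest adjusted p = 0.0792), and the random replicate block called 1, Gpc1 (adjusted p = 0.0499). The block changed no other call. No other alternative called any probe set. At an unadjusted p under 0.05 there were 146 lower and 52 higher probe sets without the block and 626 and 563 with it.

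The fusion genes lower in every pair were 3, with Cd44 added, without either array of replicate 2, without pair 2 and with the mean of a gene's probe sets. With 1 array left out, 0 to 2 fusion genes were higher in every remaining pair, and without pairs 2 and 3 these were 1 and 2. The signs of the other 4 genes depended on single arrays. Leaving out each array in turn gave -0.28 to 0.60 for Cd9, -0.41 to 0.32 for Cd81, -0.017 to 0.59 for Adam8, and -0.32 to 0.054, -0.34 to 0.43 and -1.26 to 0.11 for the 3 Cd44 probe sets. Without pair 1 Cd9 turned to -0.013 and the second Cd44 probe set to 0.022. Without pair 2 Cd9 was -0.077. Without pair 3 Cd81 was -0.11 and the second Cd44 probe set 0.11. The cause was not tested.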
